A study of Mus musculus with 6 samples.

Results

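Of 75738 chromatin regions detected in mouse back skin epidermis, 5249 (6.93%) were open only in hair follicle cells. A region was counted when both hair follicle (HF) libraries had an ATAC-seq peak in it and none of the 2 touch dome and 2 interfollicular epidermis (IFE) libraries did. Regions came from merging, across the 6 libraries, all peaks that shared 1 bp or more. ATAC-seq marks DNA that a transposase can cut, so a peak is a stretch of accessible chromatin.

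The study set 3 sorted epidermal populations side by side, each with 2 libraries of 50000 cells. HF cells were EPCAM+ α6-integrin+ SCA1- TOMATO-, touch dome cells were EPCAM+ SCA1+ α6-integrin+ TOMATO+, and IFE cells were EPCAM+ α6-integrin+ SCA1+ TOMATO-. All donors, the HF group's included, were TNC-CREER; tdTomato mice on a C57BL/6 background, given tamoxifen at 100 µg/g on postnatal days 51 and 52 and sampled on day 60. Cre was driven by Tnc, so TOMATO marks cells with Tnc activity around those days, and the HF gate takes α6-integrin+ SCA1- cells without dividing them by follicle compartment, TOMATO+ ones left out. Separate animals are not stated for the 2 libraries of a group, so agreement between them may be technical. In such bulk lists, opening in a few cells and weaker opening in all cells cannot be told apart.

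The hair follicle is a skin appendage that regenerates in cycles from stem cells of the bulge, which lie in the outer root sheath. SOX9, LHX2, NFATC1, TCF7L1, RUNX1 and NFIB are transcription factors known for roles in these cells, and Wnt, BMP and FGF signals govern their rest and activation. Enhancers, which lie away from gene starts, are commonly more cell type specific in their accessibility than promoters, and many promoters active across tissues lie in stretches rich in CpG dinucleotides.

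Few of the HF-only regions held a gene start, and the protein-coding starts shown here differ widely in CpG content. Gdf10, which encodes a ligand of the TGF-beta family, had 42 CpG in its window, at chr14:33923337-33923636 on the plus strand. The HF peaks there were 1187 bp in replicate 1 and 297 bp in replicate 2, the latter too short to cover the whole window. Bdnf, the gene of a neurotrophin, had 13 in the window of its start at chr2:109694159-109694458, plus strand. The uncharacterised gene D630039A03Rik had 6, at chr4:57916215-57916514 on the minus strand. Ahcyl2, a relative of adenosylhomocysteinase genes, had 2 in the window of 1 of its 3 listed starts, at chr6:29859346-29859645, plus strand. Each sequence runs 5′ to 3′ from 250 bases before the start to 50 after it, is taken from RefSeq (GRCm38.p6, the assembly behind mm10), and lies wholly inside an HF-only region. Capitals mark CpG dinucleotides.
Gdf10: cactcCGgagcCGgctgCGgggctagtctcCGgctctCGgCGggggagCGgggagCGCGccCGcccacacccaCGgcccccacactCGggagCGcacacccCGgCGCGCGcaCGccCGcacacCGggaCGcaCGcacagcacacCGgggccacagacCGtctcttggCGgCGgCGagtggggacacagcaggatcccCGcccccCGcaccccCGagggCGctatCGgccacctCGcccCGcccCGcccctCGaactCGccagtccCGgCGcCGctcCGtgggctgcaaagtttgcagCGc
Bdnf: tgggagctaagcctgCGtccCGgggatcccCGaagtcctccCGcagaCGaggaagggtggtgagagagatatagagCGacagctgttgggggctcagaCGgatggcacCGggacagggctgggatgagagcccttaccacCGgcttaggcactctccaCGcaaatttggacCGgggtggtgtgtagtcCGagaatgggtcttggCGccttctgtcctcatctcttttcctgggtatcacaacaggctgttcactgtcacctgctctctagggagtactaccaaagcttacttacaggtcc
D630039A03Rik: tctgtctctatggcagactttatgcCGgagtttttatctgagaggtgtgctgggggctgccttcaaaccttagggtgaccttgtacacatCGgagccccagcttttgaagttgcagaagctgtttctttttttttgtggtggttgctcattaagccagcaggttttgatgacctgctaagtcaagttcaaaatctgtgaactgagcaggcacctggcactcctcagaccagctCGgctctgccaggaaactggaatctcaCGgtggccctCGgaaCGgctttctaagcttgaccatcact
Ahcyl2: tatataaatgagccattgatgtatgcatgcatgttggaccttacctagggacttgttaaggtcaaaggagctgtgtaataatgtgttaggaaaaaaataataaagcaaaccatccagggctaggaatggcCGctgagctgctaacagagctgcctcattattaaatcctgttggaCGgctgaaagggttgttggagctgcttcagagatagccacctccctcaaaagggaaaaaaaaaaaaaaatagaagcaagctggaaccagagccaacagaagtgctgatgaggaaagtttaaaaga

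The 5249 regions held 5257 of the 54844 peaks in HF replicate 1 (9.59%) and 5267 of the 57131 peaks in HF replicate 2 (9.22%). All but 8 regions in replicate 1 and all but 18 in replicate 2 contained a single peak of that library. Both libraries' peaks covered the same bases over a median of 77.7% of a region (quartiles 65.6% and 87.4%). Neither library had consistently longer peaks there: replicate 1 had the longer one in 2809 regions and replicate 2 in 2414, with 26 equal, and the median log2 ratio of widths was 0.03. Among regions with a peak in both HF libraries, HF-only regions made up 5249 of 50108 (10.5%).

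The mirror pattern, peaks in both touch dome and both IFE libraries and in neither HF library, had 4941 regions (6.52%). A further 3045 regions (4.02%) were open in HF and touch dome but not IFE, and 244 (0.322%) in HF and IFE but not touch dome. Touch dome alone had 855 regions (1.13%) and IFE alone 925 (1.22%). Counted against 1 population at a time, 6036 regions (7.97%) were open in both HF and neither touch dome library, and 11149 (14.7%) in both HF and neither IFE library. The most frequent pattern, a peak in all 6 libraries, had 34250 regions (45.2%). These counts follow from the peak calls that chose the regions and are given without a test.

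**Figure D1:**
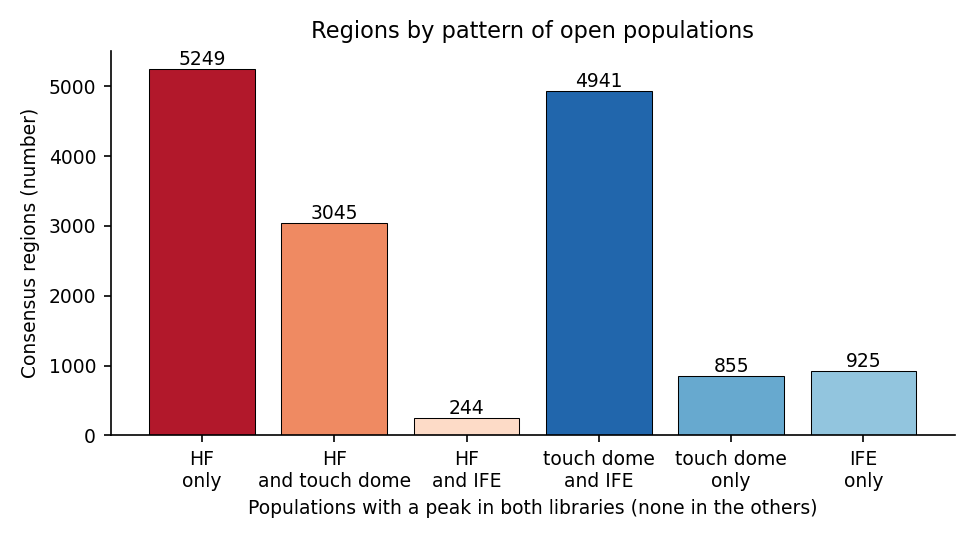
Number of regions with each pattern of peaks across the populations, a bar per pattern, with a population counted as open when both its libraries had a peak and closed when neither had. HF only has 5249 regions, against 4941 open in touch dome and IFE without HF, 3045 in HF and touch dome, 244 in HF and IFE, 925 in IFE alone and 855 in touch dome alone.

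HF peaks were narrower in HF-only regions than in the commoner shared patterns, and about as wide as in regions of HF and IFE. The median HF peak in them was 538 bp in replicate 1 and 529 bp in replicate 2, against 967 and 896 bp in regions shared with touch dome and 1087 and 1046 bp in regions open in all 6 libraries. In regions of HF and IFE the HF medians were 524 and 532 bp. Regions of other populations alone also had narrow peaks, with medians of 512 and 588 bp in touch dome only and 437 and 397 bp in IFE only. Quartiles in HF-only regions were 418 and 727 bp in replicate 1 and 410 and 715 bp in replicate 2. Peaks of at least 1000 bp were 8.46% and 7.85% of HF peaks in HF-only regions and 58.4% and 54.6% of those in regions open in all 6. Width and the rule use the same peak calls, so these values are a description.

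**Figure D2:**
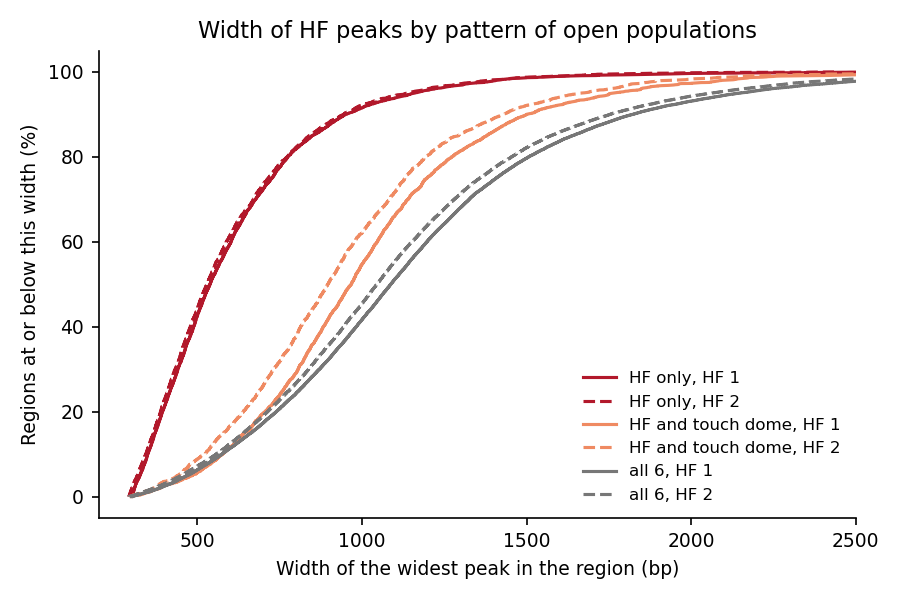
Cumulative percent of regions (y axis) by the width in bp of the widest HF peak in the region (x axis), with solid lines for HF replicate 1, dashed lines for HF replicate 2 and a colour per peak pattern. HF-only curves lie farthest left, and their medians of 538 and 529 bp are below those of regions shared with touch dome (967 and 896 bp) and of regions open in all 6 libraries (1087 and 1046 bp).

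At the edge of the rule, 3398 regions had peaks in both HF libraries and in exactly 1 other library. The other library was touch dome replicate 2 in 2677 of them (78.8%), touch dome replicate 1 in 178, IFE replicate 1 in 181 and IFE replicate 2 in 362. Where it was touch dome replicate 2, the HF peaks had medians of 711 and 684 bp and the touch dome peak 455 bp. On the other side of the edge, 1898 regions had a peak in HF replicate 1 alone (median 390 bp) and 3379 in HF replicate 2 alone (median 416 bp). Touch dome replicate 2 had the most peaks of the 6 libraries, 59250, against 50153 in touch dome replicate 1, 52219 and 51124 in IFE and 54844 and 57131 in HF. Without touch dome replicate 2 the rule took 7943 regions, and without HF replicate 1 it took 8747. The read depth of each library is unknown, the absence of a peak says no more than that the caller made none there, and the part of depth in these counts was not tested.

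The rule lets no touch dome or IFE peak overlap an HF-only region. The nearest such peak was a median of 7425 bp away (quartiles 3071 and 19418 bp). It was within 100 bp of 4 regions (0.0762%), within 500 bp of 59 (1.12%) and beyond 10 kb of 2183 (41.6%). The median gap to the nearest region of any pattern was 5252 bp for HF-only regions, 4471 bp for touch dome and IFE regions and 5008 bp for regions open in all 6.

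HF-only regions were seldom at gene ends. Only 203 (3.87%, exact 95% binomial interval 3.36% to 4.42%) lay within 1 kb of an end of a protein-coding gene, against 5.10% of the regions open in touch dome and IFE without HF, 3.25% of those shared by HF and touch dome, and 32.5% of those open in all 6. The annotation gives gene spans without strand, so an end is either the start or the finish of a gene. The largest group, 2477 (47.2%), lay elsewhere inside a gene span, 1229 (23.4%) outside but within 50 kb and 1340 (25.5%) farther away. Their median distance to a gene end was 36377 bp, against 23669 bp in the touch dome and IFE set and 8863 bp in the set open in all 6. It was longer in the HF and touch dome set (50899 bp) and in touch dome only (47389 bp), and shorter in IFE only (23977 bp). Of these sets in turn, 32.4%, 29.0% and 17.3% lay beyond 50 kb, so a distal position was not particular to HF-only regions. Read the other way, HF-only regions made up 1.50% of the 13499 regions near a gene end and 10.4% of the 12904 regions beyond 50 kb of any gene, where 6.93% was the share overall.

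**Figure D3:**
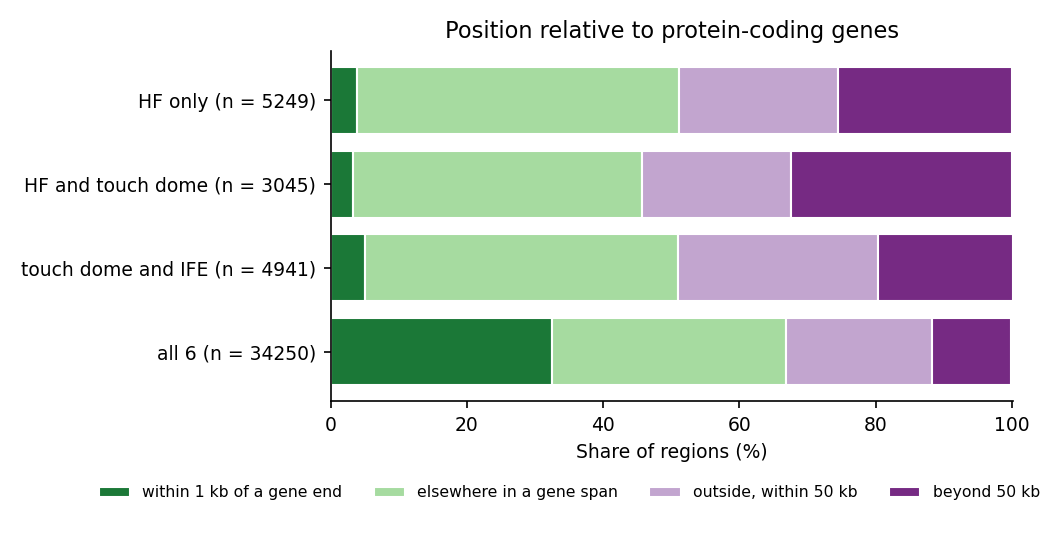
Percent of regions by position relative to protein-coding genes, with a stacked bar per peak pattern. HF-only regions have 3.87% within 1 kb of a gene end and 25.5% beyond 50 kb, while regions open in all 6 libraries have 32.5% and 11.6%. Regions shared by HF and touch dome have 3.25% and 32.4%.

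By chromosome, the HF-only share lay between 5.56% on chromosome 7 (244 of 4389 regions) and 7.87% on chromosome 18 (203 of 2580) among the autosomes. Chromosome X had 150 HF-only regions of 1674 (8.96%).

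Assignment of each region to the nearest protein-coding gene within 50 kb placed 3909 HF-only regions among 62802 placed regions (6.22%). They fell at 2667 of the 15552 genes with any region (17.1%). A single HF-only region was the usual number, found at 1946 genes, while 435 genes had 2, 224 had 3 or 4, and 62 had at least 5. Those 62 genes held 366 of the placed regions (9.36%).

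The 20 genes with the most HF-only regions are given with their open regions in each library, which include the HF-only regions that picked them. Bnc2, which encodes the zinc finger protein basonuclin 2 and is on the hair follicle transcription factor list, led with 11 HF-only regions of 45, all inside its span at chr4:84266804-84676029. Across its 45 regions, HF replicates 1 and 2 each had a peak in 40, touch dome replicates in 20 and 26, and IFE replicates in 17 and 18. Peaks in its HF-only regions were 308 to 1379 bp wide in replicate 1 and 328 to 1278 bp in replicate 2. Leaving out the 11 regions that picked Bnc2, 29 regions were open in each HF library, 20 and 26 in touch dome and 17 and 18 in IFE. At Bnc2, 13 regions were open in every library. Rad51b, a recombination repair gene, also had 11, but of 87 regions, and its open regions numbered 66 and 63 in HF, 54 and 62 in touch dome and 59 and 56 in IFE. Without its HF-only regions, Rad51b had 55 and 52 in HF, 54 and 62 in touch dome and 59 and 56 in IFE, so the groups overlapped.

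Several of the other genes encode adhesion or guidance proteins, a grouping made after the genes were seen. The ranking was by count with no adjustment for gene length, and the part of length in it was not tested. Tenm2, the gene of a teneurin, a transmembrane adhesion protein, had 9 HF-only regions of 50, and its relative Tenm4 had 7 of 62. Adgrl3, a latrophilin that binds teneurins, had 8 of 27, with 24 and 22 regions open in HF, 9 and 17 in touch dome and 7 and 9 in IFE. Sema3e, a secreted semaphorin, had 7 of 22, with 22 and 19 open in HF, 8 and 12 in touch dome and 6 and 8 in IFE. Without the HF-only regions, Adgrl3 had 16 and 14 open in HF, 9 and 17 in touch dome and 7 and 9 in IFE, and Sema3e had 15 and 12 in HF, 8 and 12 in touch dome and 6 and 8 in IFE. At both genes HF and touch dome then overlapped. Slit3, a secreted guidance ligand, had 7 of 48 and Pcdh7, a protocadherin, 7 of 26. Ntm, a neural cell adhesion gene, had 6 of 12, the largest share among the 20 genes at 50.0%, and no region open in all 6. Its open regions were 9 and 10 in HF, 4 and 5 in touch dome and 1 in each IFE library. Without the 6 HF-only regions, Ntm had 3 and 4 open in HF, so HF and touch dome overlapped there too.

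Among regulators, Prdm1, which encodes the repressor BLIMP1, had 7 HF-only regions of 17, with 15 and 14 open in HF, 8 and 9 in touch dome and 7 and 8 in IFE. Without those 7, Prdm1 had 8 and 7 open in HF, and the groups overlapped. Runx1 had 7 of 31, and 6 of the 7 lay inside its span at chr16:92601466-92826074. Its open regions numbered 25 in each HF library, 17 and 22 in touch dome and 15 and 16 in IFE. Without the 7, HF had 18 in each library, between the touch dome values. The widest HF-only peaks at Runx1, 1890 and 1158 bp, were in chr16:92645018-92646907, where the nearest touch dome or IFE peak was 6625 bp away. Erg, an ETS family factor known from endothelium, had 6 of 15, with 13 and 14 open in HF, 5 and 6 in touch dome and 5 in each IFE library. Without those 6, Erg had 7 and 8 open in HF, against the same touch dome and IFE values. The scaffold gene Nedd9 had 7 of 29 and the ubiquitin ligase gene Wwp2 6 of 15.

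Completing the 20 were Dmd (dystrophin, 7 of 20), Slc14a2 (a urea transporter, 7 of 21), Enox1 (7 of 32), Rbms3 (an RNA-binding protein, 7 of 47), Auts2 (7 of 68) and Fstl4 (6 of 14). A total of 13 genes tied at 6, of which the 4 with the highest share are named. Over the 20 genes the HF-only share ran from 10.3% to 50.0%, against 6.22% of all placed regions. Most were not HF loci as a whole, since 19 of the 20 also had a region open in all 6 libraries and 9 had a region open in touch dome and IFE without HF. These genes were picked by the count itself, so the count is not evidence about them.

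**Figure D4:**
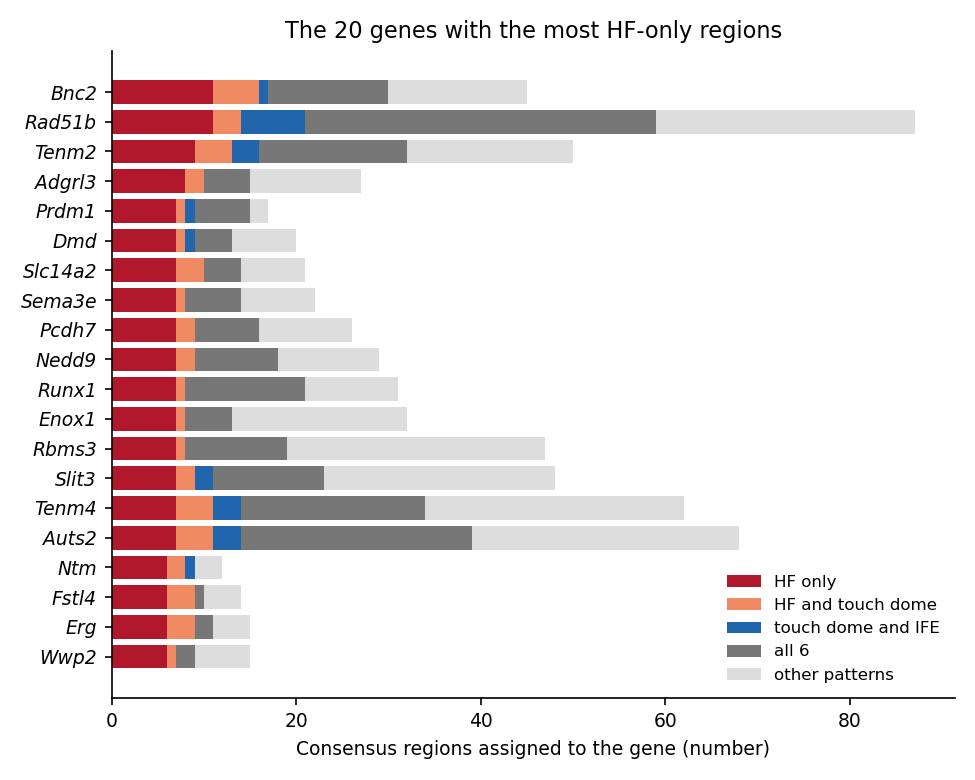
The 20 protein-coding genes with the most HF-only regions, a row per gene, with the number of regions assigned to the gene (x axis) stacked by peak pattern, HF only at the left. Bnc2 has 11 of 45 and Ntm 6 of 12, while Rad51b has 11 of 87.

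Among genes with at least 5 regions, a different set had the highest HF-only share, named after the values were seen. Agbl4, a carboxypeptidase gene, had 5 of 7 (71.4%), Gja5, the gene of a gap junction protein, and Tent5c, of a poly(A) polymerase, had 4 of 6 each (66.7%), and Bdnf had 5 of 8 (62.5%). Cacna1e, a calcium channel gene, had 5 of 9 (55.6%).

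The label was checked against markers. Of 8 hair follicle markers, 5 had an HF-only region: Nfatc1 had 3 of 27, Lgr5 (a receptor marking follicle stem cells) 2 of 15, and Sox9, Lhx2 and Tcf7l1 had 1 of 9, 1 of 15 and 1 of 20. Cd34 (0 of 7), Krt15 (0 of 2) and Tbx1 (0 of 6) had none, although all 7 regions of Cd34 and both regions of Krt15 had a peak in each HF library. Of 7 Cd34 regions, 5 and 7 were open in touch dome and 3 in each IFE library, so HF opening there was shared with touch dome. In all, 8 of 101 regions at the hair follicle markers were HF only (7.92%), near the 6.22% over all genes. At the IFE markers 1 of 27 was HF only, at Krt10, and Ly6a, the gene of SCA1, had 0 of 5 with 2 open in each HF library, 4 in each touch dome library and 5 in each IFE library. At the touch dome markers 5 of 61 were HF only (8.20%): 4 of 37 at Cadm1, 1 of 7 at Hhip and 0 of 17 at Tnc. The hair follicle markers thus had an HF-only share near that of all genes and of the touch dome markers.

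Markers of other skin cells were checked likewise. Merkel markers Atoh1, Sox2 and Isl1 had 0 of 4 regions HF only, melanocyte markers 1 of 24 (at Mitf) and immune markers 0 of 1, at Ptprc, with no region at Cd207. On the longer lists, 2 of 28 regions at Merkel cell genes were HF only (7.14%, both at Piezo2, a mechanically gated channel), 2 of 38 at melanocyte markers (5.26%, at Mitf and at the single region of Ednrb), 1 of 27 at Schwann cell markers (3.70%) and 0 of 9 at immune markers. Fibroblast markers had 2 of 12 (16.7%), both at Pdgfra, with none at Col1a1 or Prrx1. Over the fibroblast and dermal papilla list 11 of 43 were HF only (25.6%), 7 of them at Prdm1, which that list shares with the sebaceous and suprabasal lists, 2 at Pdgfra and 1 each at Col3a1 and Twist2. Endothelial markers had 6 of 28 (21.4%), all at Erg, while Pecam1 had 0 of 13 and Cdh5 had no region. The longer endothelial and mural list had 9 of 82 (11.0%): 6 at Erg, 2 of 8 at Tek and the only region of Sox17. Whether other cell types in the HF gate bear on these regions was not tested.

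Transcription factors of follicle stem cells and the outer root sheath had HF-only regions at 16 of 20 genes. These were 47 of 421 regions (11.2%, against 6.22% of all placed regions), 11 of them at Bnc2 and 7 at Runx1. Over all genes with a region, 17.1% had an HF-only one. The median share per gene was 9.25% on the list and 0 over all genes with a region. List genes had 21.1 regions each on average and all genes 4.04, so neither the medians nor the gene counts are comparable. After Bnc2 and Runx1 came the nuclear factor I genes: Nfib had 5 of 52, all inside its span, Nfia 4 of 41. Open regions at Nfib, the 5 HF-only ones included, numbered 49 and 43 in HF, 30 and 37 in touch dome and 32 and 31 in IFE. The HF-only region of Sox9, with peaks of 802 and 814 bp, lay 41736 bp from the gene, and that of Lhx2 23260 bp away. Both were beyond the gene bodies, whereas both regions of Lgr5 were inside its span, with peaks of 834 and 619 bp in one and 989 and 1046 bp in the next.

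Surface, matrix and cytoskeletal genes of the same cells had fewer: 7 of 20 genes and 14 of 148 regions (9.46%). These genes had 7.40 regions each on average, against 4.04 over all genes, of which 17.1% had an HF-only region. Cd200, a surface protein used to mark bulge cells, had 4 of 11, none inside the gene and all between 18558 and 45302 bp from it. Across its 11 regions, 10 were open in each HF library, 6 in each touch dome library, and 5 and 7 in IFE. The HF counts include its 4 HF-only regions, and 5 of the 11 regions were open in all 6 libraries. Postn, a matrix protein gene, had 2 of 10 and a different pattern, with 9 open in each HF library, 5 and 8 in touch dome and 1 in each IFE library. Its HF counts likewise include the 2 HF-only regions. Npnt, the gene of the basement membrane protein nephronectin, had 2 of 9 and Fgf18, a growth factor of the resting follicle, 2 of 5. Both lists together had 61 HF-only regions of 569 (10.7%), 11 of them at Bnc2 and 7 at Runx1. Another 14 of the 569 (2.46%) were open in touch dome and IFE without HF. Over all placed regions these shares were 6.22% and 6.31%.

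Other epithelial lists lay on both sides of the overall share of 6.22%. Genes of the hair matrix, inner root sheath and shaft had 9 of 142 (6.34%), with Edar, a receptor of follicle placodes, at 3 of 16. Infundibulum genes had 3 of 79 (3.8%), IFE basal genes 7 of 189 (3.70%), and the sort marker genes 1 of 52 (1.92%, at Itga6). Sebaceous genes had 12 of 111 (10.8%) and suprabasal genes 14 of 154 (9.09%), of which Prdm1 gave 7 in each. The touch dome list had 10 of 112 (8.93%), 4 of them at Cd200, which that list shares with the hair follicle surface list.

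Within Wnt signalling, HF-only shares are given by role beside the 6.22% of all placed regions, and their differences were not tested. Ligand genes had 5 of 104 (4.81%), 2 of them among the 3 regions of Wnt10b. Receptor genes had 18 of 203 (8.87%): Fzd9, a Frizzled receptor, had 3 of 4 and Lrp5, a co-receptor, 3 of 10. All 4 regions of Fzd9 were open in each HF library, and 1 in each of the touch dome and IFE libraries. The HF counts include its 3 HF-only regions, and its remaining region was open in all 6 libraries. Inhibitor genes had 12 of 119 (10.1%). Wif1, which encodes a secreted Wnt-binding inhibitor, had 3 of 6, with 6 open in each HF library, 2 and 3 in touch dome and 2 in each IFE library. The HF counts at Wif1 include those 3 HF-only regions. Dkk2, a secreted modulator of Wnt co-receptors, had 2 regions, both HF only.

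For the other signalling lists, HF-only shares likewise stand beside the 6.22% of all placed regions, and their differences were not tested. BMP and TGF-beta ligands had 8 of 81 regions (9.88%), led by Bmp6 with 4 of 12. Open regions at Bmp6, the 4 HF-only ones included, numbered 12 and 10 in HF, 6 in each touch dome library and 4 in each IFE library. Receptors and antagonists of the family had 18 of 233 (7.73%), with Ltbp1, a binding protein of latent TGF-beta, at 5 of 24, the follistatin-related gene Fstl1 at 4 of 7 and the inhibitory Smad7 at 3 of 13. FGF ligands and receptors had HF-only regions at 8 of 14 genes, 11 of 86 (12.8%). Over all genes with a region 17.1% had one, but FGF genes had 6.14 regions each on average and all genes 4.04. Hedgehog genes had 8 of 109 (7.34%), Notch genes 10 of 149 (6.71%, with 3 of 11 at Hes1, a Notch target), Hox genes 8 of 89 (8.99%) and axon guidance genes 41 of 463 (8.86%). Immediate early genes, which respond to cell handling, had 3 of 95 (3.16%).

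A further description is how the regions lay along the chromosome. Linking regions less than 25 kb apart gave 4455 runs, of which 3822 were single regions, 510 held 2 and 123 held at least 3, with 407 regions in these. The closest neighbour of an HF-only region was another HF-only region in 14.7% of cases, where such regions were 6.93% of all. It was a region open in touch dome and IFE without HF in 3.35% (6.52% of all) and a region open in all 6 libraries in 38.0% (45.2% of all). In the mirror set of touch dome and IFE regions, the neighbour was of its own kind in 14.9% (6.52% of all), so each kind neighboured itself at a similar percentage. An HF and touch dome region (4.02% of all) was the neighbour of 6.74% of HF-only regions and of 1.66% of the mirror set.

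The run with the most HF-only regions had 6 among 8 within chr1:186217329-186272613, 55.3 kb with no protein-coding gene within 50 kb. The longest of the runs with 5, at 76.5 kb, was beside Wif1 at chr10:121098042-121174500 and had 5 of 7, and a run at chr14:33797794-33867706, again with no gene within 50 kb, had 5 of 9. Wwp2 held 5 of 10 inside chr8:107469909-107527122. The run at Bdnf, chr2:109693306-109757589, had 5 of 7. Of the 123 runs of at least 3, 47 had no protein-coding gene within 50 kb of any of their regions.

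Bdnf had HF peaks at its starts as well as along the locus. The region around the start whose sequence is given above had peaks of 2024 and 1695 bp in HF replicates 1 and 2, and the nearest touch dome or IFE peak was 53229 bp away. A second start, at position 109722921, lay in a region with peaks of 1185 and 1191 bp, 25344 bp from the nearest such peak. Of 7 listed Bdnf starts, 2 were in HF-only regions and 5 in no region. Over the 8 regions assigned to Bdnf, 7 and 8 were open in HF, 1 and 2 in touch dome and 1 in each IFE library. The HF counts include its 5 HF-only regions.

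A listed RefSeq start site fell in 111 HF-only regions (2.11%), against 128 (2.59%) of the touch dome and IFE set and 9704 (28.3%) of the set open in all 6. The HF-only regions held 74 starts of protein-coding genes and 53 of long noncoding RNA (lncRNA) genes. The protein-coding genes numbered 66. Of these genes, 21 had more than 1 listed start. For 8 of the 21, another listed start lay in a region open in all 6 libraries, so the gene had both an HF-only and a shared start. They were Ahcyl2, Bcar3, Dnajc7, Chdh, Dhx32, 1700019D03Rik, Dclk1 and Trmt13. The HF-only start of Ahcyl2 had peaks of 1453 and 1362 bp, and its other 2 starts were open in every library.

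Several single starts stood out by width or distance. Sorcs3, the gene of a sorting receptor, had peaks of 1428 and 1254 bp, with no touch dome or IFE peak for 185878 bp. Fads2, a fatty acid desaturase gene, had 1006 and 1214 bp, and 29093 bp to the nearest such peak. Hhip, a Hedgehog-binding antagonist, had 824 and 841 bp, and 50039 bp. The opposite case was Syde1, with peaks of 1176 and 2109 bp and a touch dome or IFE peak 165 bp away. Listed genes with an end within 1 kb of an HF-only region were Hhip, Prdm1, Fstl1, Tgfb2, Hoxa5, Krt72, Krt2 and Gdf10. At Gdf10 the libraries differed, with a peak of 1187 bp in replicate 1 and 297 bp in replicate 2, and the nearest touch dome or IFE peak was 68701 bp away. Gene ends covered by the widest HF-only peaks belonged to Gmds, D630039A03Rik, Bcas1, Satl1, Sorcs3, Syde1, Fads2, Lrrc74a, Scarf2 and Myl6.

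Among all HF-only regions the widest by the smaller HF peak lay 11062 bp from Nrtn, the gene of the neurotrophic factor neurturin, at chr17:56737683-56740261, with peaks of 2575 and 2434 bp. Inside Tef, which encodes a leucine zipper transcription factor, the peaks were 2472 and 2363 bp. At an end of Gmds, whose enzyme acts in GDP-fucose synthesis, they were 2483 and 2267 bp. The next 7 were at Itpk1, Zfp318, Fmnl2, Mon2 and Sncaip, on chromosome 7 at 433902 bp from any gene, and on chromosome 9 at 290903 bp. Thus 5 of the 10 widest lay inside gene spans and 2 lay beyond 50 kb of a gene.

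Promoters in HF-only regions were poor in CpG beside those open everywhere. A promoter window of 300 bases lay wholly inside an HF-only region in 75 cases, with a median of 6 CpG (quartiles 3 and 11) and 52% GC. Windows in touch dome and IFE regions without HF numbered 104, with medians of 5 CpG and 48.8% GC, and the 12114 windows in regions open in all 6 had 22 CpG and 62.3% GC. The 67 windows in HF and touch dome regions had a median of 8 CpG (quartiles 4 and 24). Over all listed windows the median was 7 CpG, near the HF-only value, and it was 3 in windows with no region at the start site. At least 10 CpG were present in 28.0% of HF-only windows, 25% of touch dome and IFE windows and 44.8% of HF and touch dome windows. The share was 87.2% in windows open in all 6, 14.2% in windows with no region and 43.5% in all 32851 listed windows. By biotype, 49.3% of the HF-only windows were of lncRNA genes, against 14.2% of windows open in all 6 and 35.3% of all listed windows. This share was not particular to HF-only windows. It was 46.2% in touch dome and IFE windows, 49.3% in HF and touch dome windows and 49.2% in windows with no region. Protein-coding windows alone had a median of 8 CpG in HF-only regions (38 windows), against 23 in regions open in all 6. Of the sequences printed, Gdf10 with 42 CpG is far above the median of its set, and Ahcyl2 with 2 is below it.

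**Figure D5:**
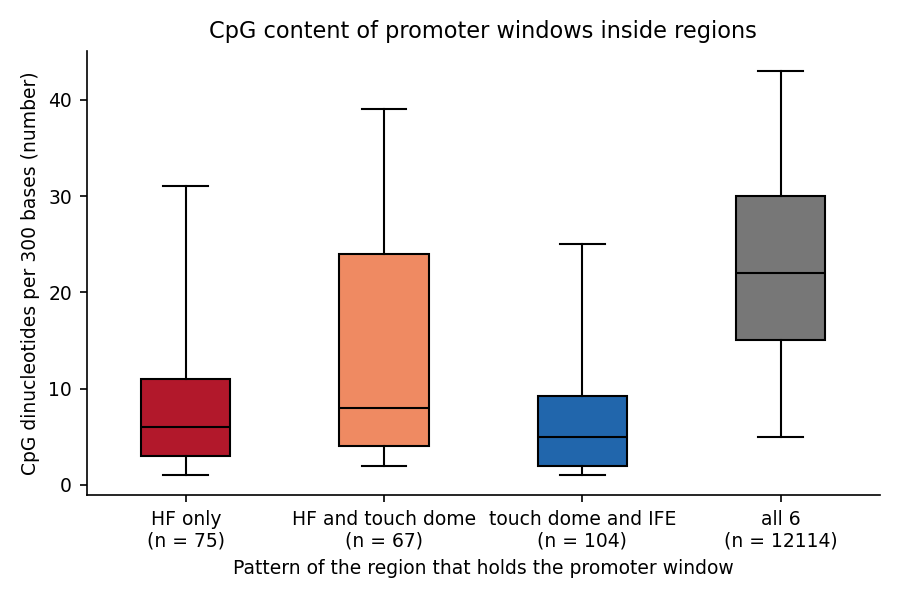
CpG dinucleotides per promoter window of 300 bases, by the peak pattern of the region that holds the window, with lines for medians, boxes for quartiles and whiskers for the 5th and 95th percentiles. HF-only windows have a median of 6, touch dome and IFE windows 5, HF and touch dome windows 8, and windows in regions open in all 6 libraries 22.

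A search for 16 short motifs on both strands of these windows gave shares as descriptions. The letters GGAATG, bound by TEAD factors, were in 27 of 75 HF-only windows (36.0%, exact 95% binomial interval 25.2% to 47.9%), in 12.5% of touch dome and IFE windows, in 11.5% of windows open in all 6 and in 14.7% of all windows. TTGGC, the core of nuclear factor I sites, was in 65.3% of HF-only windows (53.5% to 76.0%), against 51.9% of touch dome and IFE windows and 46.7% of all. ACAATG, bound by SOX factors, was in 16.0%, against 3.85% of touch dome and IFE windows, 14.9% of HF and touch dome windows and 12.6% of all. Its share was 24.3% of the 37 HF-only windows with the narrower HF peaks and 7.89% of the 38 with the wider. The AP-1 letters TGANTCA were in 9.33% of HF-only windows, 20.2% of touch dome and IFE windows and 7.81% of all. In HF and touch dome windows AP-1 was at 23.9%, GGAATG at 11.9% and RUNX at 13.4%. In windows with no region at the start site, AP-1 was at 9.30%, SOX at 16.9%, RUNX at 20.6% and GGAATG at 16.5%. The RUNX letters TGTGGT were in 17.3% of HF-only windows, 26.9% of touch dome and IFE windows and 16.8% of all, and in 8.11% of the HF-only windows with narrower and 26.3% of those with wider HF peaks. GGAATG was in 29.7% of the narrower and 42.1% of the wider set, and in 28.9% of the protein-coding and 43.2% of the lncRNA windows in HF-only regions. GGGCGG, bound by KLF and SP factors and overlapping CpG, was in 28.0% of HF-only windows and 67.8% of windows open in all 6. Its share was 20.2% in touch dome and IFE windows, 37.3% in HF and touch dome windows and 35.7% in all. Some windows overlap, such as those of D630039A03Rik and of the lncRNA gene Gm42293 on the other strand. A match can then count more than once, while the intervals treat windows as separate. The full nuclear factor I site, longer than the core, was in 0 of the 75 HF-only windows and in 0.0365% of all. TCF/LEF letters were in 13.3% of HF-only windows, 18.3% of touch dome and IFE windows and 16.0% of all. LHX homeodomain letters were in 9.33%, 3.85% and 5.29% of these sets in turn, and in 7.39% of windows with no region. The motifs named here were singled out after their shares were seen. At most 2.11% of HF-only regions hold such a promoter window, and a match is no evidence of binding. Of the printed windows, Ahcyl2 holds GGAATG, and Gdf10, Bdnf and Ahcyl2 hold TTGGC on either strand.

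Of 1005 listed microRNA hairpins, 128 overlapped a region. An HF-only region was the one overlapped for 3 of these (2.34%, where 6.93% of all regions were HF only), a touch dome and IFE region for 4 and a region open in all 6 for 101. Mir224 on chromosome X lay wholly inside chrX:72260917-72261625, with HF peaks of 606 and 631 bp. Its mature products are given from RefSeq, 5′ to 3′, with the seed (bases 2 to 8) in capitals, since they are encoded inside an HF-only region. They share no seed. The hairpin was named after the values were seen.
mmu-miR-224-5p: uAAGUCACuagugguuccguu
mmu-miR-224-3p: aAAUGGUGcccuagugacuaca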

How the data were processed

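ATAC-seq was measured in 6 libraries, 2 each of HF, touch dome and IFE cells. A deposited list has 4 columns, 3 for the position of a peak and a name, so positions in bp are the only values, with no score or height. The submitters' processing notes name MACS2 2.2.7.1 and SAMtools 1.9, besides Bowtie2 2.4.5 and, for trimming, Trim Galore 0.6.7, with build mm10. Tool settings, the threshold of the peak calls and a shift for transposase cuts were not given in the sources used here. Each library had its own list, so the presence of a peak depends on its depth, which is unknown.

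Groups came from the labels. Peaks overlapping by at least 1 bp were merged, and starts were converted to count from 1. Each region was given to the nearest of 21887 protein-coding RefSeq gene spans (GRCm38.p6) within 50 kb, preferring a gene that contains it. Listed promoter windows cover 79.9% of these genes. They served for the motif search, which had been planned on region centres should a genome be given. The 26 gene lists had 472 of 474 genes matched. No test was run, since the peak calls chose the regions and regions are not replicates. Intervals are exact binomial at the 95% level and cover counting error only. Tools were Python 3.11.15, pandas 2.3.3, numpy 2.4.6, SciPy 1.17.1 and Matplotlib 3.10.9. The region builder and the gene assignment were tested on simulated data, with 0 of 342 library states and 0 of 57 assignments wrong.

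Regions, lists, markers and motifs were chosen with earlier results of these data known. Named genes were the 20 with the most HF-only regions, up to 4 genes per list with at least 1, the markers, list genes with an end within 1 kb of an HF-only region, the 10 genes whose end the widest regions cover, the 10 widest regions and the 5 runs with the most regions (ties by length). Genes ranked by share, single start sites, other starts and microRNAs were named after their values were seen. Alternatives were peak cover, merging distance, peak width, equal peak numbers, autosomes, gene window, linking distance and leaving out each library.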

Additional observations from a re-analysis of the deposited data

How the results depend on the processing

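The number of HF-only regions was 5249 as reported and stayed between 4576 and 6443 when peaks had to cover 50% of a region, when peaks within 100 or 500 bp were merged, when every library gave equal numbers of its widest peaks, and on autosomes alone. With the wider 50% of each library's peaks it was 2500. Leaving out 1 library at a time gave 5427 to 8747, the highest without HF replicate 1, and 7943 without touch dome replicate 2. The share within 1 kb of a gene end was 3.87%, 7.12% with the wider 50% of peaks, and 3.73% to 4.30% with a library left out. The 61 HF-only regions at hair follicle list genes became 40 with the wider 50% of peaks, 62 to 97 with a library left out (97 without touch dome replicate 2), 48 with genes within 10 kb and 71 within 100 kb. Runs of at least 3 regions numbered 123, 37 when linked within 10 kb and 257 within 50 kb. By definition, leaving out a library removes a condition of the rule, and a longer linking distance joins regions farther apart. Causes of these shifts beyond the settings themselves were not tested.

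Counts at single genes stayed within 1.5 times the reported value in 173 of 180 comparisons over gene windows, merging within 500 bp and libraries left out. With the wider 50% of peaks, which are not among these, the 20 leading genes had 0 to 5 HF-only regions in place of 6 to 11, with 3 genes at 0. Equal numbers of the widest peaks gave 2 to 11. Without HF replicate 1, Rbms3 had 12, Slit3 13, Tenm4 12 and Auts2 15 HF-only regions. Without touch dome replicate 2, Enox1 and Tenm4 had 11 each, and within 10 kb Prdm1 had 4. Of 32 motif shares in windows with narrower or wider HF peaks, 4 lay outside the 95% interval of the share over all HF-only windows: RUNX at 8.11% (narrower), SOX at 7.89% (wider), and ETS and GRHL at 0 (narrower). No paired analysis was possible because the results are counts of regions from peak lists, with no test into which a replicate number could enter. Peak lists without scores or reads limit every count to what was called.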
